A study of Rattus norvegicus with 8 samples.

Results

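The small leucine-rich proteoglycans (SLRPs) examined here were Dcn, Bgn, Fmod, Lum, Prelp, Ogn, Omd, Aspn, Chad and Podn, a list of 10 genes of the family picked by name. A row of that name was found for 6 of the 10, and all 6 were among the 13250 genes tested. Expression was measured by RNA-seq of primary nucleus pulposus (NP) cells, which fill the soft centre of the intervertebral disc, isolated from adult Sprague Dawley rats of 3 to 6 months and grown in DMEM with 10% FBS. The cells were transduced with lentivirus carrying a mixture of 3 ShSirt6 clones against Sirt6, which encodes a nuclear NAD-dependent deacylase (SIRT6KD/ShSirt6, called Sirt6-KD, libraries S5 to S8), or with ShCtrl virus (SIRT6Ctrl/ShCtrl, called Sirt6-Ctrl, libraries S1 to S4). Both groups were thus transduced and placed under puromycin. The clones were mixed, so the effect of 1 clone cannot be told apart from that of another. Per the series record the cells came from 4 rats and each knockdown had its own control, and per the study from 4 independent experiments, but the labels do not tie a Sirt6-KD library to a Sirt6-Ctrl library.

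SLRPs are secreted proteins built around a horseshoe-shaped core of leucine-rich repeats, and many carry chondroitin, dermatan or keratan sulfate chains. They bind collagen fibrils and set their diameter and spacing, and several also hold growth factors or act as ligands of cell-surface receptors. In the disc and in cartilage they are part of the matrix that lies between the collagen network and the aggrecan gel.

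The libraries held 31994838 to 40124813 counts in Sirt6-Ctrl and 32382957 to 36600792 in Sirt6-KD, and 3 counts, taken as the floor of detection, corresponded to 0.0727 to 0.0928 CPM, which are counts scaled to a common library size. Sirt6 (ENSRNOG00000006393) had 1964, 1755, 1782 and 1962 reads in S1 to S4 and 753, 702, 738 and 695 in S5 to S8, so the labels of all 8 libraries held. The ERCC spike-ins, synthetic RNAs added to a sample, took 6.27% of the counts in S1 and 9.80% in S2. In S3 and S4 they took 3.08% and 2.97%, and in Sirt6-KD 2.15% to 2.47%. S1 and S2 thus stood apart from the rest of Sirt6-Ctrl, and every Sirt6-Ctrl library lay above every Sirt6-KD library. Of 14 NP markers, 9 were tested, and Foxf1 (1148 to 2059 reads) and Pax1 (1633 to 3039 reads) were present in every library, whereas no row was named Krt18, Krt19, Tbxt or Shh. The summed level of the NP markers was 451 to 568 CPM in Sirt6-Ctrl and 597 to 735 CPM in Sirt6-KD. In Sirt6-KD, Car3 and Krt8 were lower and Ncam1 higher, and Krt8 lost its call without S1 (adjusted p = 0.145, edgeR) or any 1 Sirt6-KD library (up to 0.12). Markers of other cells were compared in the same way. The lists for annulus fibrosus and tendon (183 to 327 against 311 to 346 CPM), mural cells (115 to 261 against 128 to 227 CPM) and chondrocytes (5.89 to 18.1 against 7.96 to 17.6 CPM) overlapped between the groups. Most of the annulus fibrosus and tendon sum was Egr1 (127.6 to 173.5 against 277.9 to 302.6 CPM). The other 3 tested, Scx (-1.20), Thbs4 (-1.91) and Mkx (-0.48), had negative log2 fold changes, and of these only Scx was called. The osteoblast list (16.1 to 24.1 against 25.7 to 30.0 CPM) did not overlap. Among these lists Alpl and Scx were lower and Egr1, Runx2 and Col9a1 higher. Col9a1, of the chondrocyte list, had at most 2 reads per Sirt6-Ctrl library. With 1 library left out in turn the call was kept in 8 of 8 fits for Alpl and Egr1. It was kept in 4 for Runx2 and for Col9a1 and in 2 for Scx. Leukocyte markers (rows for 2 of 7 names) summed to at most 5.17 CPM in any library. Endothelial markers (a row for 1 of 6 names) summed to at most 0.592 CPM. No row was named Col2a1, Ptprc, Pecam1, Sp7 or Bglap. The sums leave out names without a row, so they do not show that such cells were absent. In such bulk samples, fewer cells of a type and less RNA per cell cannot be told apart. The part of these marker differences in the results that follow was not tested.

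Sirt6 depletion went with lower expression of 3 of the 6 SLRPs tested. Fmod fell 22.4-fold, Dcn 3.28-fold and Prelp 2.08-fold, while Lum and Chad had negative log2 fold changes without passing the test and Bgn, at a log2 fold change of 0.13, was not called. Calls rest on edgeR's quasi-likelihood test, two-sided and adjusted over all rows tested, with limits of 0.05 for the adjusted p and 1.5 for the fold. By this rule 3 members were called lower, where 10.7% of all genes tested were, and 0 were called higher, where 8.02% of all genes were. At an unadjusted p under 0.05, still 0 members were higher. DESeq2 called 5 members lower and 0 higher (all genes, 11.8% and 10.9%), and limma-voom called 4 lower and 0 higher (all genes, 9.88% and 12.0%). Without S1 and S2, 3 members were lower (all genes, 5.00%), which were Fmod, Dcn and Lum, and with spike-in scaling only Fmod was (all genes, 0.0302%). The 6 members had a median log2 fold change of -1.56, against -0.016 over all 13250 genes. In 2 members, Fmod and Dcn, every Sirt6-KD library lay below every Sirt6-Ctrl library, as in 15.6% of all genes tested. Chad passed the filter on low counts mainly through Sirt6-Ctrl, so its negative value is partly set by the filter. The plot of levels by library shows the 6 genes.

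**Figure D1:**
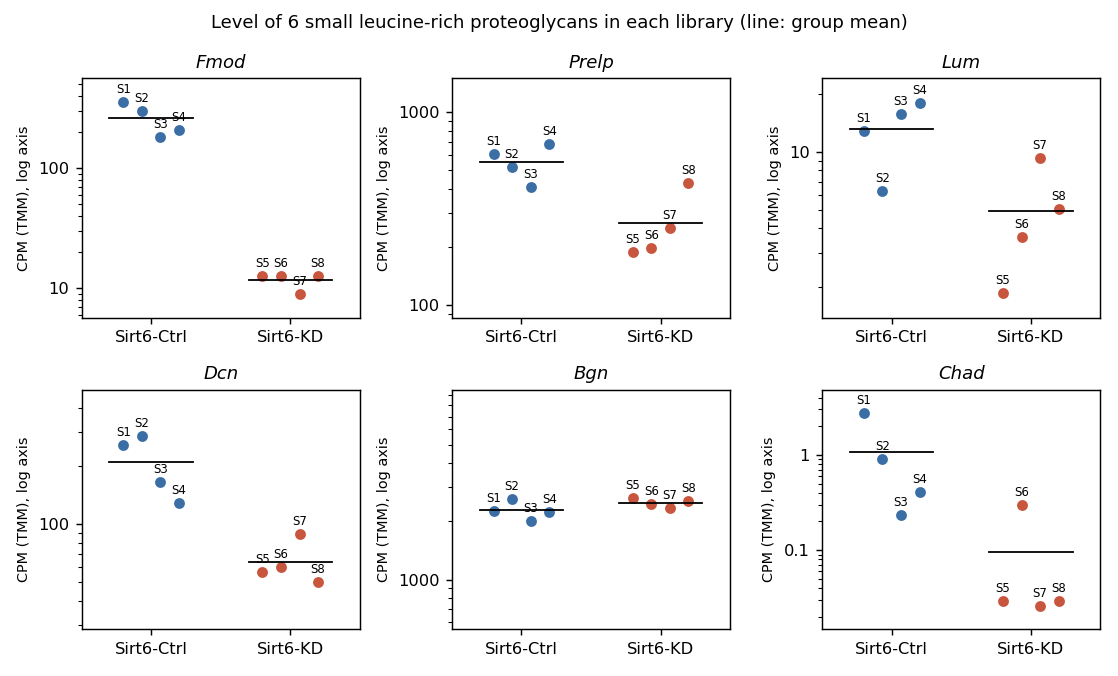
Level of each SLRP in each library as TMM-normalized CPM on a log axis, with a line at the mean of the 4 libraries of a group and axes that differ between genes. The 4 Sirt6-KD libraries of Fmod lie between 8.916 and 12.72 CPM, below all Sirt6-Ctrl libraries (182.7 to 358.4 CPM), whereas those of Bgn (2348 to 2644 CPM) overlap them (2020 to 2624 CPM).

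Among the class II SLRPs, which include fibromodulin, lumican and PRELP and often carry keratan sulfate, Fmod (ENSRNOG00000003183) differed most between the groups. Fibromodulin binds type I and type II collagen, steers the cross-linking of fibrils and binds TGF-beta. Its level was 358.4, 299.4, 182.7 and 207.3 CPM in S1 to S4 and 12.59, 12.72, 8.916 and 12.61 CPM in S5 to S8. The groups lay far apart, and the 2 highest values were those of S1 and S2, the libraries with the high spike-in share. The log2 fold change of Fmod was -4.48 (SE, the standard error, 0.25, 95% interval -5.04 to -3.93, adjusted p = 1.74e-05, edgeR), and by p-value Fmod ranked 2 among all genes tested. Without S1 and S2 it was -4.05 (adjusted p = 2.77e-05, edgeR). When libraries were scaled by their spike-in counts, which moved the median of all genes to 0.94, Fmod was at -3.35, or -4.30 relative to that median, and was the only one of the 3 members still called (adjusted p = 0.0153, edgeR). The knocked-down gene itself, Sirt6, was called lower in the main fit (log2 fold change -1.35, adjusted p = 0.000713, edgeR). Under spike-in scaling Sirt6 was at -0.36 and not called (adjusted p = 0.567, edgeR). Once 0.94 was taken off, Sirt6 was at -1.31. A call lost under this scaling thus does not show that a gene was unchanged. Subtracting the median takes most of the shift back out, so values with it subtracted are not a separate check on the main fit.

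The promoter of Fmod is shown because no member changed more, together with that of Chad, the member with the next most negative log2 fold change. Both are the 250 bases before the annotated start in RefSeq on the GRCr8 assembly, which is not the build of the counts (Rnor_6.0), and both lie on the plus strand, at chr13:48045317-48045566 and chr10:80008795-80009044. Capitals mark a CCAAT box (CCAAT), a GC box (GGGCGG) or a TATA box (TATAAA), each searched on both strands:
Fmod: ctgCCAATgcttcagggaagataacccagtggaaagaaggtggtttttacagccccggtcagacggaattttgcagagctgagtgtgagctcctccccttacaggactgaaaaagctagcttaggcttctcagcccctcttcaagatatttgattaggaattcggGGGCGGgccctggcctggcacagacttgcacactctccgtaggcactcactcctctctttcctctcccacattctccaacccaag
Chad: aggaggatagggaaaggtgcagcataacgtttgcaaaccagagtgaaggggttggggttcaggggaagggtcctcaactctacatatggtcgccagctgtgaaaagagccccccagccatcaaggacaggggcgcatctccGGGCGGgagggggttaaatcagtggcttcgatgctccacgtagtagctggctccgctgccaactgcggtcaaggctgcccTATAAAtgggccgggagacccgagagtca
In Fmod the CCAAT box began 247 bases and the GC box 85 bases before the start, and the window held no TATA box. Chad had a TATA box 29 bases and a GC box 109 bases before its start. CCAAT occurred in 34.0%, GGGCGG in 30.5% and TATAAA in 12.9% of the 33469 promoters of the same length. An AP-1 motif (TGANTCA, in 6.34% of promoters) and a SOX motif (ACAAAG, in 16.3%) were searched too, and neither stood in these windows. An E-box (CANNTG, in 65.5% of promoters) was found in the Chad window at 168, 157 and 50 bases before the start and not in that of Fmod. These matches describe letters only. RefSeq promoter entries matched 7 of the 10 members, which did not include Dcn, Bgn or Prelp.

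Prelp (ENSRNOG00000003120) encodes a class II SLRP whose basic N-terminus binds heparin and heparan sulfate. Its level was 604.8, 518.4, 411.2 and 684.1 CPM in S1 to S4 and 189.2, 197.1, 251.7 and 429.7 CPM in S5 to S8. The groups overlapped, since S8 lay above S3. The log2 fold change was -1.06 (SE 0.27, 95% interval -1.65 to -0.46, adjusted p = 0.021, edgeR). The call was lost on leaving out S1 (adjusted p = 0.0635), S5 (0.0663), S6 (0.07) or S7 (0.0651), and without S1 and S2 together (log2 fold change -1.03, adjusted p = 0.071, edgeR). With spike-in scaling Prelp was at -0.08, or -1.02 with the median of all genes subtracted, and was not called (adjusted p = 0.912, edgeR).

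Lum (ENSRNOG00000004610) encodes lumican, a keratan sulfate proteoglycan that spaces the thin fibrils of the cornea and is also found in disc and cartilage. It had 444, 202, 533 and 738 reads in S1 to S4 and 64, 121, 356 and 170 reads in S5 to S8. As levels these were 12.76, 6.247, 15.69 and 17.89 CPM against 1.852, 3.614, 9.281 and 5.031 CPM. The highest Sirt6-KD library, S7, lay above the lowest Sirt6-Ctrl library, S2. Lum was not called (log2 fold change -1.41, SE 0.49, 95% interval -2.49 to -0.33, adjusted p = 0.0621, edgeR). It was called on leaving out S2 (adjusted p = 0.0315), S7 (0.0404) or S1 and S2 together (0.0472, log2 fold change -1.75, edgeR), and by DESeq2 (0.0187) and limma-voom (0.0481).

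The class I SLRPs decorin and biglycan, which carry chondroitin or dermatan sulfate, did not move together. Dcn (ENSRNOG00000004554) encodes decorin, which binds type I collagen and TGF-beta and is a ligand of several receptor tyrosine kinases. Its level was 255.9, 284.8, 165.6 and 128.7 CPM in S1 to S4 and 56.35, 59.62, 89.05 and 49.89 CPM in S5 to S8. All Sirt6-KD libraries lay below all Sirt6-Ctrl libraries, with S7 the nearest to them. The log2 fold change was -1.71 (SE 0.27, 95% interval -2.31 to -1.11, adjusted p = 0.00421, edgeR) and stayed between -1.92 and -1.51, called each time, with each library left out in turn. Without S1 and S2, the 2 libraries with the most Dcn, it was -1.20 (adjusted p = 0.0129, edgeR). With spike-in scaling Dcn was at -0.51, or -1.46 once that median was subtracted, and was not called (adjusted p = 0.375, edgeR).

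Bgn (ENSRNOG00000055962) encodes biglycan, which binds collagen and, once released from the matrix, the Toll-like receptors TLR2 and TLR4. It had 78855, 84855, 68629 and 92519 reads in S1 to S4 and 91363, 82197, 90069 and 86619 in S5 to S8. As levels these were 2266, 2624, 2020 and 2243 CPM against 2644, 2455, 2348 and 2563 CPM, and the groups overlapped. The log2 fold change was 0.13 (SE 0.14, adjusted p = 0.538, edgeR), and its 95% interval corresponds to a ratio of Sirt6-KD to Sirt6-Ctrl between 0.886 and 1.35. A p above the limit does not show that the levels were equal. With spike-in scaling Bgn was at 1.14, or 0.20 with the median subtracted, and not called (adjusted p = 0.093, edgeR).

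Chad (ENSRNOG00000003304) encodes chondroadherin, a class IV SLRP of cartilage that binds collagen and integrins and lacks the sugar chains of its relatives. It had 96, 29, 8 and 17 reads in S1 to S4 and 1, 10, 1 and 1 reads in S5 to S8. Thus 3 of the 4 Sirt6-KD libraries lay under the floor of 3 counts, while S6, with 10 reads, lay above S3, and S1 alone held most of the Sirt6-Ctrl reads. The log2 fold change was -3.45 (SE 1.21, 95% interval -6.14 to -0.77, adjusted p = 0.0656, edgeR), not called. DESeq2 called it (adjusted p = 0.0153), as did edgeR without S3 (log2 fold change -3.78, adjusted p = 0.0437), but without S1 and S2 together it was at -1.72 (adjusted p = 0.442, edgeR).

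No row of the table that carries the gene names was named Ogn, Omd, Aspn or Podn, which encode osteoglycin, osteomodulin (also called osteoadherin), asporin and podocan. That table holds the 13612 rows whose reads in the 8 libraries sum to more than 80, so these 4 are given as below its count filter. The missing name does not show that the RNA was absent, because names of abundant matrix genes were missing or near empty too. Col6a3 had no row, whereas its chain partners Col6a1 and Col6a2 had 22974 to 48071 and 30269 to 56304 reads, and Col1a2 had 31 to 107 reads where Col1a1 had 290419 to 1040124.

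**Figure D2:**
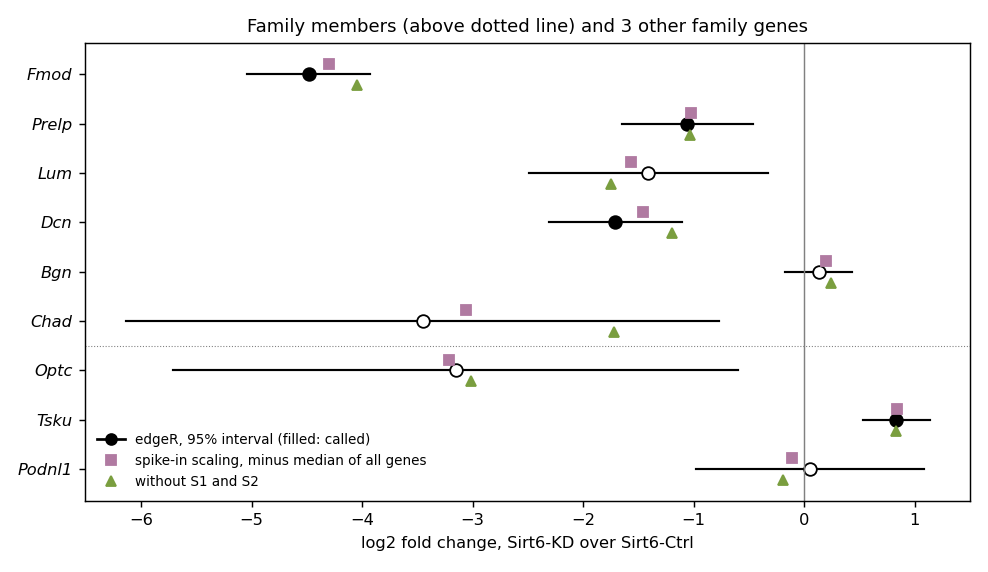
Log2 ratio of Sirt6-KD to Sirt6-Ctrl for the 6 SLRPs and for Optc, Tsku and Podnl1, with the 95% interval of the edgeR fit (circles, filled where called), the value with spike-in scaling minus the median of all genes (squares) and the value without S1 and S2 (triangles). Fmod has values of -4.48, -4.30 (-3.35 before the median was subtracted) and -4.05, whereas Chad moves from -3.45 to -1.72 without S1 and S2. Subtracting the median takes most of the spike-in shift back out, so the squares are not a separate check on the circles.

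Bgn, which was not called, also served as a yardstick within each library, and such a ratio does not depend on the scaling between libraries. This ratio was chosen after the data were seen. Per 1000 Bgn reads there were 158, 114, 90.5 and 92.4 Fmod reads in S1 to S4 and 4.76, 5.18, 3.80 and 4.92 in S5 to S8, a ratio of the means of 24.4. Dcn had 113, 109, 82.0 and 57.4 reads per 1000 Bgn reads against 21.3, 24.3, 37.9 and 19.5 (ratio 3.51). Prelp had 267, 198, 204 and 305 against 71.6, 80.3, 107 and 168 (ratio 2.28). On this measure all Sirt6-KD libraries lay below all Sirt6-Ctrl libraries for Fmod, Dcn and Prelp, as for 21.9% of all genes tested, while Lum and Chad overlapped. The share of the 6 genes' reads that came from Bgn was 64.7%, 70.3%, 72.3% and 68.4% in S1 to S4 and 91.0%, 90.0%, 86.7% and 83.8% in S5 to S8. The share of Fmod went from 7.77% ± 1.79 to 0.41% ± 0.0584 (SD, n = 4 each). Reads were not divided by transcript length, so these shares compare libraries and not genes. The summed level of the 6 genes was 3500, 3734, 2796 and 3281 CPM in S1 to S4 and 2904, 2728, 2707 and 3061 CPM in S5 to S8, and overlapped.

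**Figure D3:**
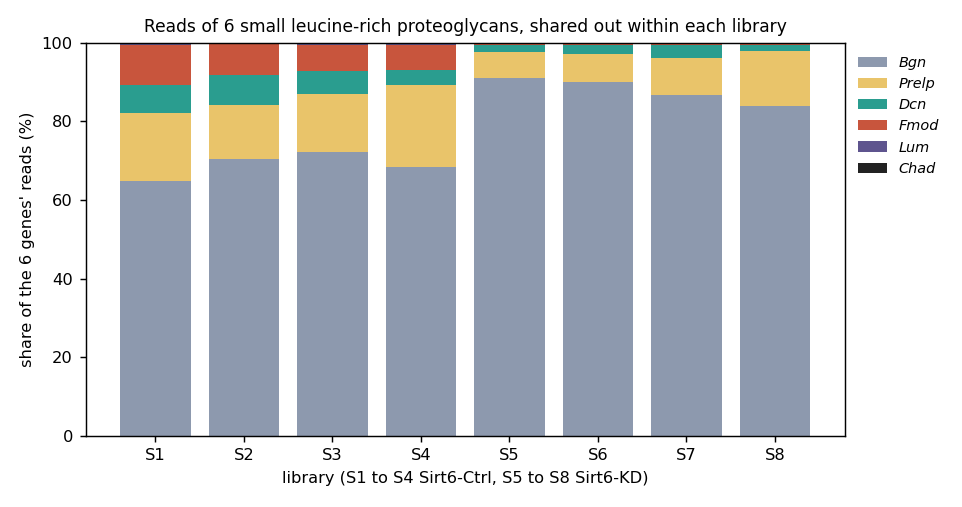
Share in percent of the reads of the 6 SLRPs that each gene took in each library, stacked to 100%. Bgn takes 64.7% to 72.3% in Sirt6-Ctrl and 83.8% to 91.0% in Sirt6-KD, and the Fmod band of 6.32% to 10.2% in Sirt6-Ctrl shrinks to at most 0.466% in Sirt6-KD.

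Replicates of a group differed in SLRP levels, and the genes did not share 1 pattern. After the group mean was removed, the deviations of log2 CPM over the 8 libraries correlated positively in 9 and negatively in 6 of 15 pairs of members, with a median r of 0.16. The highest r was that of Fmod and Chad (0.80), followed by Bgn and Fmod (0.67). The lowest were those of Bgn and Lum (-0.75) and of Fmod and Lum (-0.60). Lum was low in S2 and S5 and high in S7, where Fmod had the lowest Sirt6-KD level. Chad was high in S1 and in S6. The genes whose deviations followed the mean deviation of the 6 members most closely were AABR07068351.1 (r = 0.971), Trpc2 (0.965), Mapk14 (0.96), Supt4h1 (0.95) and Aplf (0.948). These 5 were picked as the highest r among all genes tested, so high values follow in part from the picking. The largest deviations in that mean were those of Chad (1.85 in S1, 1.55 in S6), which had 1 to 96 reads. Libraries share depth, spike-in share and composition, so these values are descriptions over 8 points.

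Several SLRP genes lie side by side in the genome, so the neighbours were read from the same fit, by their order on GRCr8. On chromosome 13 Optc, Prelp and Fmod are adjacent, and their log2 fold changes were -3.15, -1.06 and -4.48. The genes that flank the 3, Atp2b4 (0.23, adjusted p = 0.749) and Btg2 (0.12, adjusted p = 0.712, edgeR), were not called, and among the 10 neighbours of Prelp and Fmod, of which 5 were tested, 0 were called in either direction. At an unadjusted p under 0.05 there were 1 lower (Optc) and 1 higher (Chi3l1), and DESeq2 called both, limma-voom Chi3l1. On chromosome 7 Dcn and Lum are adjacent and are followed by Kera and Epyc, 2 further SLRP genes without a row. Of the 10 neighbours of Dcn and Lum, 6 were tested, 0 were lower and 1, the endosome gene Eea1, was higher (log2 fold change 1.30, adjusted p = 0.0067, edgeR). At an unadjusted p under 0.05, 1 was lower (Poc1b), and DESeq2 and limma-voom called 0 lower. Btg1, next to Dcn, was at 0.19 (adjusted p = 0.42, edgeR). With so few neighbours tested and 10.7% of all genes called lower, these counts do not set the SLRP genes apart from the genes beside them. Around Chad on chromosome 10, Mrpl27 was lower (log2 fold change -0.99), a call kept only without S3 or without S4 among the fits with 1 library left out. Around Bgn on chromosome X, Slc6a8 was lower (-0.76) and Zfp275 higher (0.64), the call of Zfp275 being lost without S1, S5 or S7.

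**Figure D4:**
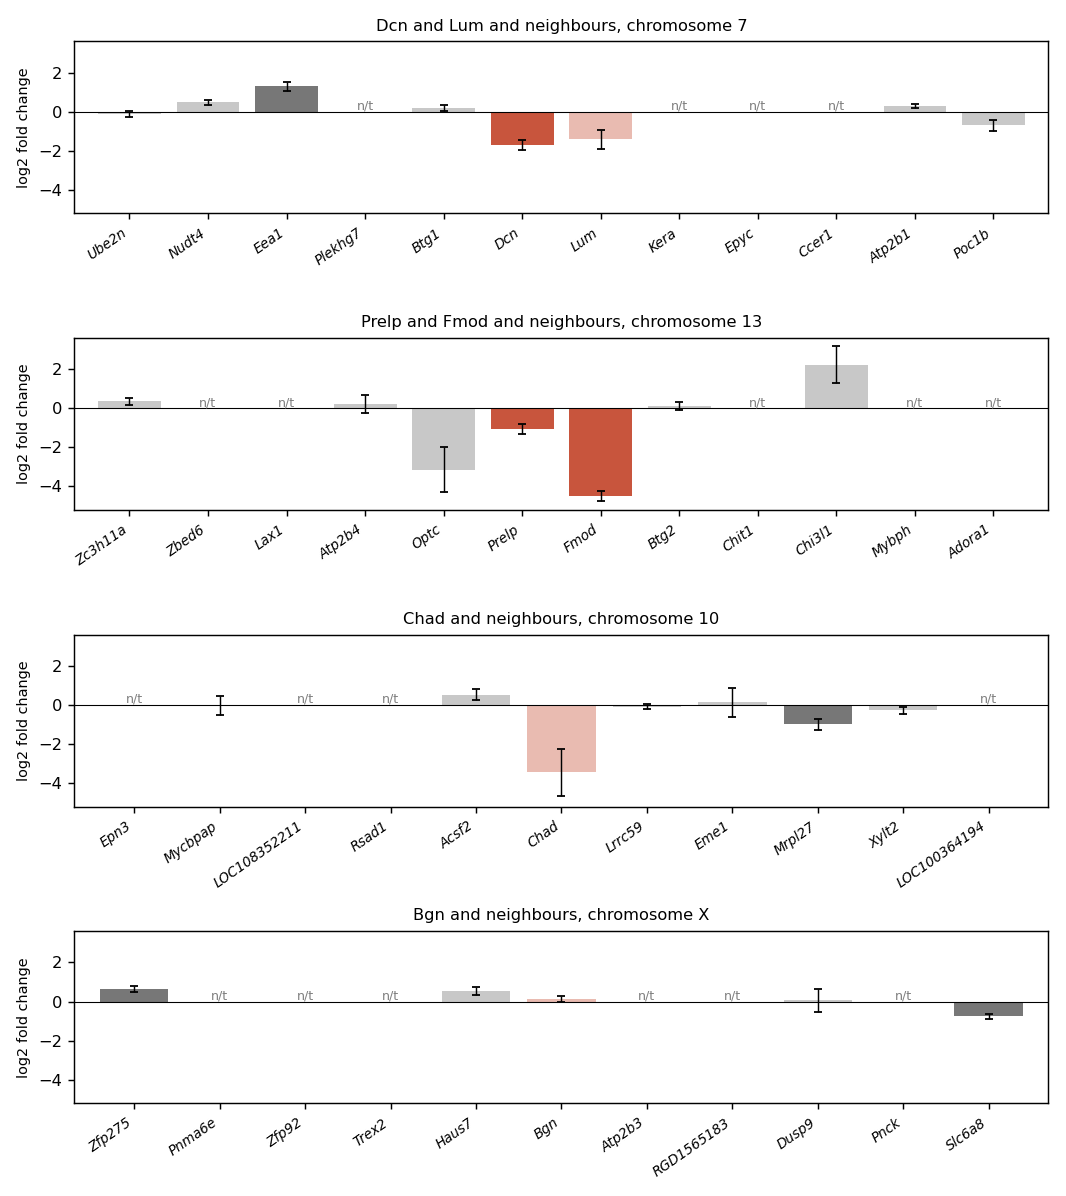
Log2 ratio of Sirt6-KD to Sirt6-Ctrl for SLRP members (red) and the genes beside them (grey) in their order on the chromosome, with error bars of 1 standard error, full colour where called, and n/t where not tested. On chromosome 13 Optc, Prelp and Fmod (-3.15, -1.06 and -4.48) stand between Atp2b4 (0.23) and Btg2 (0.12).

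The rest of the family was read from a list of 8 further SLRP genes, of which 3 had a row, Optc, Tsku and Podnl1. Tsku, which encodes tsukushi, a class IV SLRP that binds BMP and Wnt pathway proteins, rose from 1294, 1255, 1324 and 1599 reads in S1 to S4 to 2849, 2052, 2328 and 2351 in S5 to S8. The groups did not overlap, and the log2 fold change was 0.83 (SE 0.14, adjusted p = 0.00484, edgeR). The direction of Tsku was thus opposite to that of Fmod, Dcn and Prelp. Optc, which encodes opticin of the vitreous body, had 207, 2, 93 and 95 reads against 3, 21, 3 and 15, and S2 lay below every Sirt6-KD library. It was not called (log2 fold change -3.15, SE 1.15, adjusted p = 0.0742, edgeR), but was without S2 (-3.55, adjusted p = 0.0166) and by DESeq2 (adjusted p = 0.0128). Podnl1 was at 0.05 (SE 0.47, adjusted p = 0.955, edgeR), and its sign changed without S2 (-0.23), without S3 (-0.06), without S5 (-0.08) and without S8 (-0.02).

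The partners of SLRPs were read from lists of related genes, in which 10.7% lower and 8.02% higher calls over all genes are the background. Of 14 collagens tested, 3 were lower and 1 higher, with a median log2 fold change of -0.31. Col3a1, the chain of type III collagen, fell from 28368 to 62506 reads in Sirt6-Ctrl to 11111 to 21650 in Sirt6-KD (log2 fold change -1.38, adjusted p = 0.00812, edgeR). Col5a3 (-1.02) and Col11a2 (-1.11), chains of fibril-nucleating collagens, were lower too, but Col5a3 lost its call without S1, S4, S5, S6 or S7 (adjusted p up to 0.0782) and Col11a2 without any 1 library other than S2 and S3 (adjusted p up to 0.0893, edgeR). Col9a1 had at most 2 reads per Sirt6-Ctrl library but 13 to 31 per Sirt6-KD library. The Sirt6-KD level was on average 7.22 times that of 3 counts per Sirt6-Ctrl library, which is not a lower limit for each library. Col9a1 passed the filter on low counts only through Sirt6-KD, so its positive value is partly set by the filter. Its call was lost without any 1 of the Sirt6-KD libraries (adjusted p up to 0.0724, edgeR). The main fibril gene Col1a1 was at -0.63 and not called (adjusted p = 0.15, edgeR).

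Of 18 other proteins of the collagen fibril surface and its cross-linking that were tested, 3 were lower and 0 higher (median -0.44). At an unadjusted p under 0.05, 3 were higher (Lox, Fn1 and Loxl4), and DESeq2 and limma-voom each called 2 higher (Lox and Loxl4). Comp, which links collagen molecules and is like Fmod a gene of load-bearing tissue, fell from 559, 267, 283 and 364 reads in S1 to S4 to 30, 70, 33 and 45 in S5 to S8. For Comp the log2 fold change was -3.01 (SE 0.43, adjusted p = 0.00298, edgeR). Matn2, a matrilin that bridges matrix fibres, fell from 475, 398, 281 and 237 reads to 22, 54, 56 and 42 (-3.01, SE 0.44, adjusted p = 0.00316, edgeR). Matn4 (-2.38, adjusted p = 0.0288, edgeR) lost its call without S1 or any 1 Sirt6-KD library (adjusted p up to 0.0826). Of 7 large proteoglycans and link proteins, 1 was higher and 0 lower, also 0 lower at an unadjusted p under 0.05 and with DESeq2 and limma-voom (median -0.38). Vcan, the gene of versican, rose from 917, 2739, 4484 and 3248 reads to 7067, 8469, 12802 and 6900 (log2 fold change 1.63, adjusted p = 0.0169, edgeR), with the call lost without S7 (adjusted p = 0.0533). Acan, the gene of aggrecan, was at -0.62 (adjusted p = 0.52, edgeR) and had 158 to 2296 reads in Sirt6-Ctrl.

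The enzymes that build the sugar chains of SLRPs showed called genes in both directions. Of 6 enzymes of the linkage region, B3gat3, which adds the glucuronic acid that completes the linker, was lower (log2 fold change -0.99, adjusted p = 0.0136, edgeR; median of the list -0.17), but it was not called without S1 and S2 (-0.59, adjusted p = 0.0727, edgeR). With spike-in scaling it was at 0.15, which is -0.79 with the median of all genes subtracted. In that list 0 were higher with edgeR, and 1, Xylt1, was at an unadjusted p under 0.05 and with DESeq2, 0 with limma-voom. Of 14 chondroitin and dermatan sulfate enzymes, 1 was lower and 2 higher (median 0.21). Chpf, the chondroitin polymerizing factor, was at -1.09 (adjusted p = 0.00622, edgeR) and at 0.02 with spike-in scaling, which is -0.92 with that median subtracted. Chst15, a sulfotransferase for chondroitin sulfate E, rose from 124, 107, 158 and 69 reads to 508, 498, 601 and 384 (2.10, adjusted p = 0.00421, edgeR). Chst11, the chondroitin 4-sulfotransferase, was at 1.25 (adjusted p = 0.0277, edgeR), with the call lost without S1 or any 1 Sirt6-KD library (adjusted p up to 0.0875). Of 8 keratan sulfate enzymes, 1 was lower and 2 higher (median 0.54). B4galt4, a galactosyltransferase of the keratan sulfate chain, fell from 552, 347, 273 and 373 reads to 67, 57, 134 and 104 (-2.09, adjusted p = 0.0058, edgeR). The sulfotransferase gene Chst2 (1.10, adjusted p = 0.00678) and the sialyltransferase gene St3gal1 (1.11, adjusted p = 0.008, edgeR) were higher.

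Among proteases, ligands and receptors of the SLRPs, 0 genes were called lower by edgeR, DESeq2 or limma-voom, and 0 were lower at an unadjusted p under 0.05. With 1 library left out in turn, 1 protease was called lower, Mmp2 without S7 (log2 fold change -0.99, adjusted p = 0.027, edgeR). Of 10 proteases tested, 1 was higher (median 0.42), Mmp3, the gene of stromelysin, which cleaves decorin and other SLRPs. Mmp12, below the filter and so not tested in the main fit, had at most 1 read per library in Sirt6-Ctrl. In Sirt6-KD it had 44, 6, 24 and 21 reads (S5 to S8), on average 7.94 times the level of 3 counts per Sirt6-Ctrl library. It was named after its reads were seen. Mmp3 had 12324, 17690, 22217 and 10024 reads in S1 to S4 and 39705, 42970, 65122 and 34857 in S5 to S8 (log2 fold change 1.52, adjusted p = 0.00803, edgeR). Of 9 growth factors that SLRPs bind (median 0.14), Bmp2 (1.44, adjusted p = 0.00435) and Bmp6 (1.49, adjusted p = 0.0134, edgeR) were higher, and the TGF-beta genes Tgfb1, Tgfb2 and Tgfb3, at -0.39, -0.02 and 0.14, were not called. Of 13 receptors, 7 were higher (median 0.66). With 1 library left out this count was 4 without S1, S4, S5 or S8, and 3 without S6 or S7. It was 6 without S2 and 8 without S3. Over all genes, 1063 were called higher, and 552, 1096, 491 and 736 without S1, S4, S5 and S8. Without S6, S7, S2 and S3 they were 445, 477, 1171 and 1699. The least stable of the 7 were Vldlr, Itga2 and Igf1r, called in 1, 2 and 3 of these 8 fits and named here after their values were seen. The 7 also included Lrp1, an endocytic receptor that takes up decorin (1.16, adjusted p = 0.00327, edgeR), and Tlr2, a receptor of biglycan (1.46, adjusted p = 0.00872, edgeR). Both kept their call with each library left out in turn. Met, a receptor tyrosine kinase bound by decorin, rose from 333, 125, 713 and 812 reads to 1857, 2173, 2366 and 1987 (2.14, adjusted p = 0.00885, edgeR). Cd44 was higher by 0.62 (adjusted p = 0.0136, edgeR), near the limit of fold, and was not called without S4, S6 or S7 (log2 fold change 0.56 at the lowest, adjusted p up to 0.053). Without S1 and S2, 4 of the receptors were called higher, where 5.71% of all genes were. With spike-in scaling, 1 gene of all these lists, Chst15, was called higher, where 0.151% of all genes were.

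**Figure D5:**
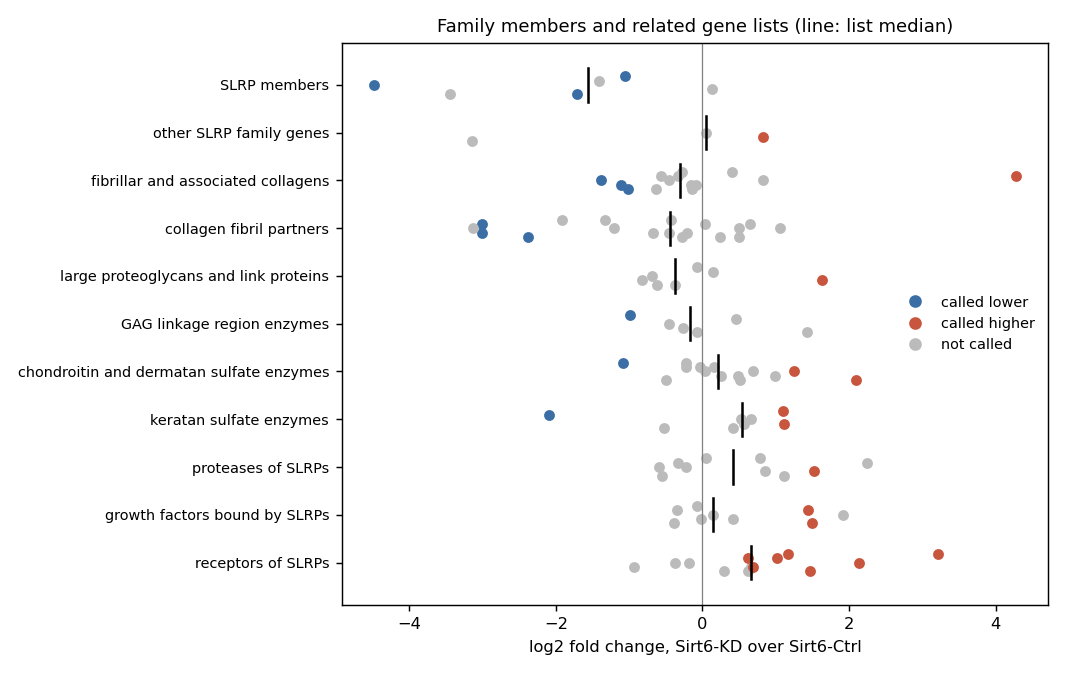
Log2 ratio of Sirt6-KD to Sirt6-Ctrl for each tested gene of the SLRP members and of 10 related gene lists, with a line at the median of each list and colour by call. The members lie around a median of -1.56, the collagens around -0.31 and the receptors around 0.66, and the far point of the collagens is the fitted value of Col9a1, which had at most 2 reads in Sirt6-Ctrl.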

How the data were processed

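RNA of 8 libraries (n = 4 independent experiments per group in the study's text) was sequenced by a service provider. The submitters' processing notes name Trimmomatic 0.36, STAR 2.5.2b, Subread 1.5.2 (featureCounts), DESeq2 and Rnor_6.0. The authors deposited raw counts per gene (32975 rows, of which 92 were ERCC spike-ins). The authors also deposited a table of 13612 rows with gene names, a normalized signal per library (counts divided by a size factor) and their own log2 fold changes and p-values. Only the names of that table were used.

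Here rows were filtered with filterByExpr, normalized by TMM and tested with edgeR 4.0.16 in R 4.3.3 (quasi-likelihood, unpaired, Benjamini-Hochberg over 13313 rows, 63 of them spike-ins). Levels are TMM-normalized CPM, made with the spike-in rows left in. Floors cover counting error only, since reads carried no molecular identifiers. The alternatives were other normalizations, spike-in scaling, other filters, DESeq2 1.42.0, limma-voom 3.58.1 and fits without 1 or 2 libraries. Scripts were tested on simulated data. The members and the lists were chosen with earlier results of these data known. The genes named were the members, Sirt6, other SLRP genes, at most 4 called genes per list and direction by p, the markers and the 5 genes nearest to the members; values of genes that were not called, and the genes beside the members, were added after they were seen. No genome of the build of the counts was used, so the only coordinates given are those of the Fmod and Chad promoter windows. RefSeq sequences and gene order are of GRCr8.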

Additional observations from a re-analysis of the deposited data

Results flagged for a closer look

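In groups of 4 libraries, 1 library was set against the others by the gap to its nearest neighbour divided by the range of the group, and called out where this passed Dixon's 95% limit for 4 values. Of 70 groups examined, 6 passed, where chance alone gives about 4 (1 in 20). Fmod in Sirt6-KD had S7 below the other libraries (0.965), at 8.916 CPM against 12.59 to 12.72 CPM. Chad in Sirt6-KD had S6 above the others (0.987), with 10 reads against 1 in each. Tsku in Sirt6-Ctrl had S1 as the lowest (0.881). Col3a1 in Sirt6-KD had S8 as the highest (0.961), the library in which Prelp was highest too. Comp and Matn4 in Sirt6-Ctrl had S1 as the highest (0.927 and 0.83).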

How the results depend on the processing

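Over all settings, the 3 members called lower became 1 with spike-in scaling (Fmod), 5 with DESeq2, 4 with limma-voom and 2 to 4 with 1 library left out. The log2 ratio of the summed SLRP level was -0.22, 0.96 with spike-in scaling and -0.30 to -0.16 with 1 library left out. The 1416 genes called lower became 4 with spike-in scaling, 709 without S1 and S2 and 700 to 1913 with 1 library left out. The 1063 called higher became 20 with spike-in scaling, 1602 with DESeq2, 1591 with limma-voom and 445 to 1699 with 1 library left out. The 26 called genes of the 10 related lists became 1 with spike-in scaling and 17 to 37 with 1 library left out. The sign changed for Podnl1 without S1 and S2 (-0.19), S2 (-0.23), S3 (-0.06), S5 (-0.08) or S8 (-0.02), its range with 1 library left out being -0.23 to 0.37, and with spike-in scaling, which moved the median of all genes to 0.94, for the called genes B3gat3 (0.15), Chpf (0.02), Mrpl27 (0.23) and Slc6a8 (0.29). Among genes named but not called it changed for Col1a1 (0.24), Col1a2 (0.61), Col6a1 (0.70), Col6a2 (0.54), Acan (0.03), Tgfb1 (0.62), Tgfb2 (0.83), Foxf1 (0.77), Pax1 (0.58), Poc1b (0.49) and Lrrc59 (0.83). The cause was not tested. Of the single-gene values, 504 kept direction and side of the threshold, 77 lost a call and 9 gained one. At low counts (Chad, Optc, Col9a1), depth limits the values. No paired analysis was possible because the columns carry no number that ties a Sirt6-KD library to a Sirt6-Ctrl library.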
